A study of Mus musculus with 24 samples.

Results

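The genes considered here encode 7 transcription factors that set the identity of B cells: Pax5, Ebf1, Ikzf1, Bach2, Bcl6, Irf4 and Prdm1. The trimethylated form of lysine 4 on histone H3 (H3K4me3) was mapped by chromatin immunoprecipitation and sequencing in leukemic splenocytes of Eµ-TCL1A mice on the C57BL/6 strain. In these animals a TCL1A transgene under a B-cell enhancer leads to a disease like chronic lymphocytic leukemia. The groups were wild type for the demethylase KDM1A, with the label "no" for treatment, or had a KDM1A knockdown, and both carry the leukemia model. Each had 3 biological replicates with 2 technical replicates, giving 6 immunoprecipitated and 6 input libraries, and the labels give no age, no sex, no knockdown method and no sorting step. Members were all deposited regions that overlap a fixed window around each gene, and 215 of the 63425 regions in the 3 lists did so. Of these, 156 were listed as common to both conditions, 46 as unique to the knockdown (KD regions) and 13 as unique to the wild type (WT regions). KD and WT regions are called one-sided below. A KD region at Ikzf1 and a common region at Irf4 crossed a window limit. Taking each side of each window, the nearest region left outside lay between 635 bp (left of Ikzf1) and 130383 bp (right of Bcl6) away. On the left of Bcl6 it lay 32259 bp away.

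H3K4me3 is laid down at the start sites of active genes, mostly where CG dinucleotides are dense, and it spreads over unusually broad stretches at genes that define a cell type. KDM1A, also called LSD1, demethylates the mono- and dimethylated forms of H3K4 and not the trimethylated one. Among the 7 factors, Ebf1 and Pax5 commit progenitors to the B lineage, Ikzf1 encodes the zinc-finger protein Ikaros, and Bach2 and Bcl6 are repressors that hold mature B cells back from becoming plasma cells. Irf4 and Prdm1, which encodes Blimp-1, drive that last step.

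The sequence upstream of 4 of these genes is shown because H3K4me3 follows CG-rich start sites. RefSeq tables of the build GRCm38.p6 list 10 start sites for the 7 genes, and the 250 bases before each were read from them. Capitals mark each CG, a motif that reads the same on both strands. The regions lie on GRCm39 and positions were not carried between builds, so the positions given for the sequences cannot be set against those of the regions, and no region was assigned to a start site. Ikzf1 (first listed start, chr11:11685675-11685924, plus strand) and Pax5 (chr4:44710695-44710944, minus strand) are shown for the windows with the broadest common regions. Irf4 (chr13:30748983-30749232, plus strand) is shown for a window with no KD region, and Bach2 (chr4:32417185-32417434, plus strand) for the window whose longest domain was the shortest. The Bach2 stretch lies before the only start listed for that gene, and whether this is its main start was not determined.
Ikzf1: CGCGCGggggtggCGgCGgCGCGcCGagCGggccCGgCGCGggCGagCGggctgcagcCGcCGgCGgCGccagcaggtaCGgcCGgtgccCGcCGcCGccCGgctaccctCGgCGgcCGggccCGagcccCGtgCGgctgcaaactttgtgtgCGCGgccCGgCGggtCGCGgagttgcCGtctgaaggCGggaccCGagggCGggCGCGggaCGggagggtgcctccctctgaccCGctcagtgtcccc
Pax5: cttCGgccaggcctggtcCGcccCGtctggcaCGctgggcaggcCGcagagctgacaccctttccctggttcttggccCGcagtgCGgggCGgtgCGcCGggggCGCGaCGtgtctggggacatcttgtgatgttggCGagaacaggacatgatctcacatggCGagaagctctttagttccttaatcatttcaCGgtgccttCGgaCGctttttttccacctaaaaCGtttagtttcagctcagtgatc
Irf4: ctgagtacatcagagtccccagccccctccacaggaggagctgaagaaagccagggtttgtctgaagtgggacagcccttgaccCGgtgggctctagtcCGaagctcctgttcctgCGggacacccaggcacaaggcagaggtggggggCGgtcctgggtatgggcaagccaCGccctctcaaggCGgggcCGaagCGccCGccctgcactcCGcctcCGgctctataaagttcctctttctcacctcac
Bach2: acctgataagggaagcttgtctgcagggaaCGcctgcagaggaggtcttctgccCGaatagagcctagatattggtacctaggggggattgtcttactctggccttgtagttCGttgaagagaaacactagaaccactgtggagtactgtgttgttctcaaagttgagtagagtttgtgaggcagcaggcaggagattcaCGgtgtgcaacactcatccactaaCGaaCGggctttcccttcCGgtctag
The Ikzf1 stretch held 44 CG, a count that 0.539% of the 32851 listed promoters reach, and the second listed Ikzf1 start held 1. The Pax5 stretch held 19 (reached by 19.7%), that of Irf4 11 (35.6%) and that of Bach2 7 (46.3%), against a median of 6 over all promoters. Among the genes not shown, the Prdm1 stretch held 15, the Bcl6 starts 21 and 13, and the Ebf1 starts 9 and 14.

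H3K4me3 covered 285 kb, or 18.8%, of the 1520 kb in the windows, and most of it was shared by both conditions. Common regions covered 266 kb, KD regions 19.9 kb and WT regions 5.37 kb, with overlaps between the lists counted in each. One-sided regions thus took 8.87% of the marked length, against 14.0% over all assembled chromosomes. This share, like those by window below, includes one-sided sequence that also lies inside common regions. Such sequence was 23.2% of the KD and 35.0% of the WT length, against 16.1% and 11.5% over the assembled chromosomes. By number, KD regions were 21.4% of the windows' regions, where 23.4% of all regions were KD regions. WT regions were 6.05%, where 8.40% of all regions were WT regions. Both shares lie near the background. The KD share of one-sided regions was 78.0% (46 of 59, 95% Wilson interval 65.9 to 86.6%), against 73.6% over all assembled chromosomes and 75.3% over the 5 chromosomes that hold the windows. All intervals cover counting error only and treat neighbouring regions as independent, which they are not.

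The deposited lists compare the conditions as a whole, with no value per library and no read depth. No difference below could be set against the spread between animals, and no test was run. Fewer marked cells and less mark per cell cannot be told apart in such lists. The score is the authors' own and is not defined in the file headers. It lies above 3 for each one-sided and below 3 for each common region, and for common regions it carries no direction.

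**Figure D1:**
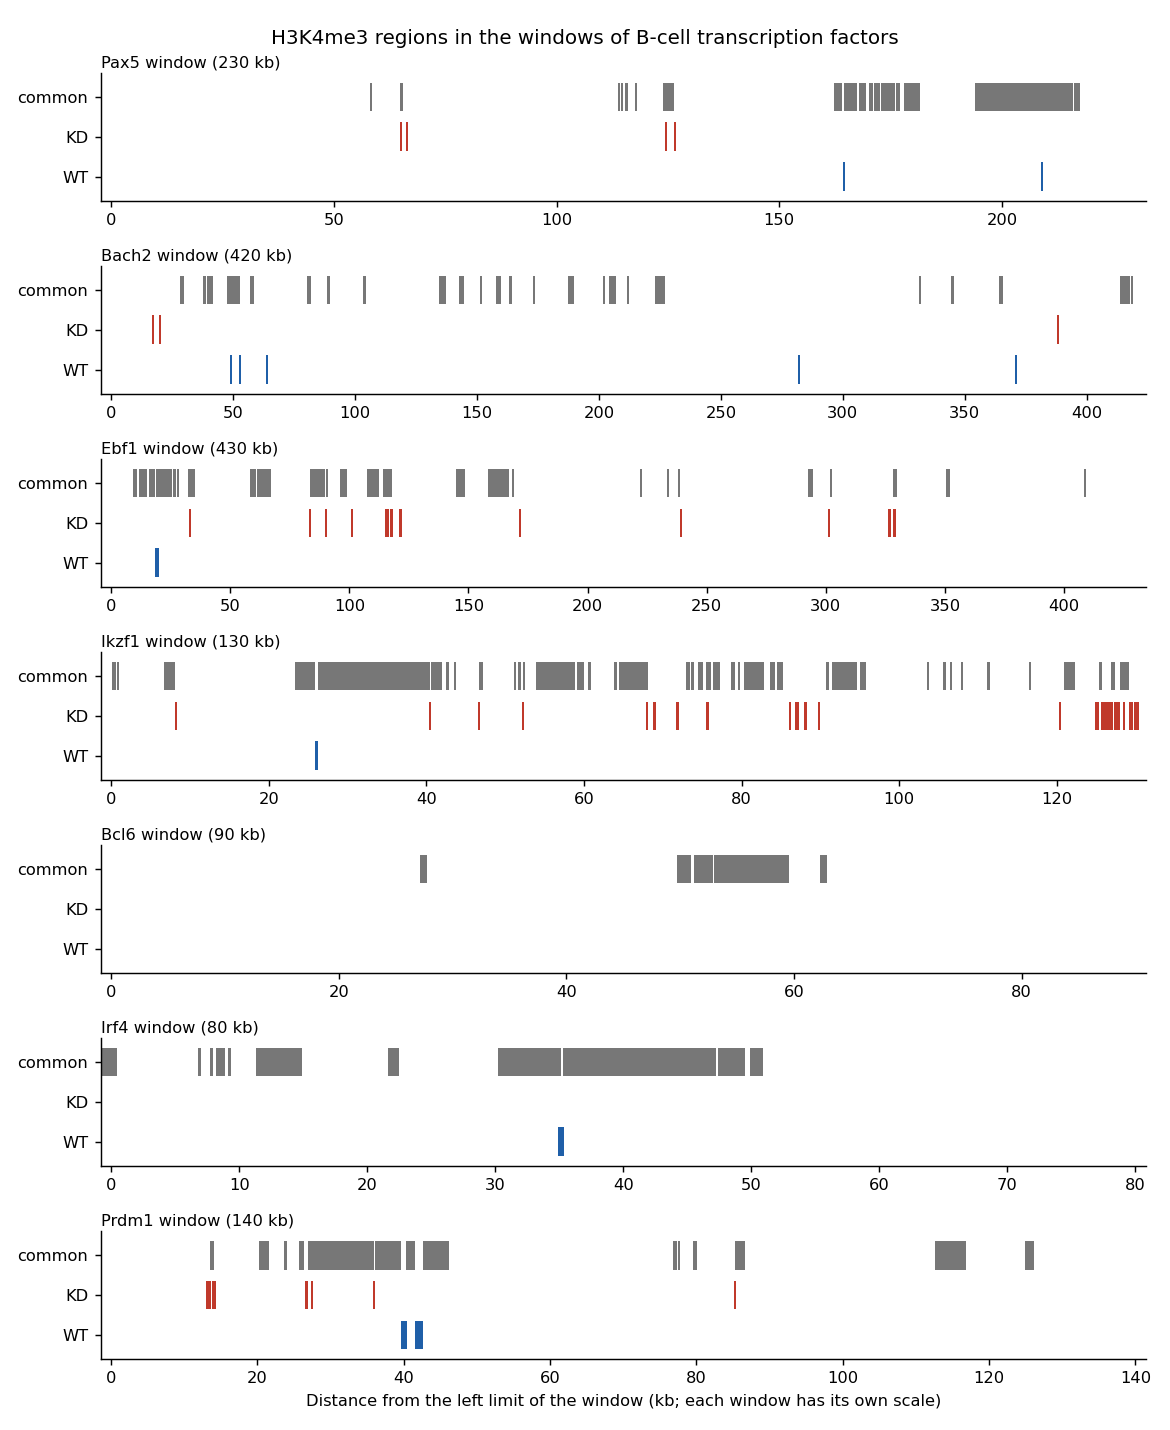
Map of the deposited regions in each window, with the distance from the left limit of the window in kb on the horizontal axis and the common, KD and WT lists as rows (very short regions are drawn at a minimum width). The WT rows are sparse and sit under long common stretches in the Pax5, Ebf1, Ikzf1, Irf4 and Prdm1 windows. KD regions are most numerous in the Ikzf1 window (19, 31.7% of its regions) and the Ebf1 window (14, 25.5%). On chromosome 11, which holds both, 26.6% of all regions are KD regions.

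Pax5 carried the broadest shared mark of the 7 windows. Its window (chromosome 4, 44.50 to 44.73 Mb) held 20 common, 4 KD and 2 WT regions, which covered 45.7 kb. A single common region of 22041 bp at 44694009 to 44716049 made up 48.2% of that length. It ranked 3 by length among 43250 common regions, and it was 6.20 times as long as the next common region of the window. Regions of all lists were joined into domains where gaps were at most 1 kb, and the domain around this region measured 23437 bp and ranked 77 of 28503. Pax5 is read from the minus strand, so its start lies towards higher positions, and this domain lay 194 to 217 kb from the left limit of the 230-kb window.

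Next to it lay a second long Pax5 domain of 19338 bp at 44662299 to 44681636, built of 11 common regions and ranked 163. Each of these long domains held 1 of the window's WT regions. The WT region at 44664215 to 44664586 (372 bp, score 6.27) filled the junction of common regions, and the one at 44708824 to 44709031 (208 bp, score 3.30) lay wholly inside the 22041-bp region. The 4 KD regions, of 214 to 532 bp, were in smaller domains. A domain of 1894 bp at 44564841 to 44566734 had a KD region at each end, with scores of 4.09 and 6.14. A domain of 2939 bp at 44623883 to 44626821 had KD regions scoring 3.34, inside its common region, and 3.88, at its right end. One-sided regions made up 4.22% of the marked length at Pax5. By number, KD regions were 15.4% of the window's regions, against 22.6% on chromosome 4, and WT regions 7.69% against 8.92%.

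Ebf1, the partner of Pax5 in B-lineage commitment, had the greatest marked length of the 7 windows. Its window (chromosome 11, 44.49 to 44.92 Mb) held 39 common, 14 KD and 2 WT regions over 70.1 kb, in 22 domains. The broadest common region, 6692 bp at 44508901 to 44515592, exceeded the next by a factor of only 1.06, and 4 common regions measured at least 5 kb. The longest domain, 16758 bp at 44501752 to 44518509, ranked 246 and lay 11.8 to 28.5 kb from the left limit, which is the upstream side for this plus-strand gene. Both WT regions were in that domain, at 44508552 to 44508998 (447 bp, score 3.87) and 44509301 to 44509848 (548 bp, score 3.31), and no KD region was.

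KD regions at Ebf1 were spread over the remainder of the window. They made up 25.5% of its regions, near the 26.6% on chromosome 11. Of the 14, 7 were in contact with a common region, 3 lay within 1 kb and 4 lay 1 to 5 kb away. The longest, 1308 bp at 44816047 to 44817354 (score 6.13), and its neighbour of 1157 bp at 44818393 to 44819549 (score 5.40) lay in 1 domain of 3503 bp with just 2 short common regions. The highest score, 6.44, belonged to a KD region of 514 bp at 44611412 to 44611925, which formed a domain with another KD region and without common sequence. The other 11 scored 3.50 to 4.24. A further run of 3 KD regions with scores of 3.50 to 3.86 fell in a domain of 3821 bp at 44604163 to 44607983.

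Ikzf1 was the most densely marked window and the one with most KD regions. H3K4me3 covered 43.1% of the window (chromosome 11, 11.61 to 11.74 Mb), with 40 common, 19 KD and 1 WT region. The broadest common region, 14226 bp at 11636227 to 11650452, ranked 51 of all common regions, and its domain of 20407 bp at 11633283 to 11653689 ranked 141. The domain lay 23.3 to 43.7 kb from the left limit, again the upstream side of a plus-strand gene. It held the only WT region (322 bp at 11635916 to 11636237, score 6.30), which bridged common regions, and 1 KD region (277 bp at 11650295 to 11650571, score 4.27).

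The other 18 KD regions at Ikzf1 lay in 9 smaller domains to either side, mostly to the right. The KD share was 95% (19 of 20, interval 76.4 to 99.1%), on a chromosome where it was 81.6%. KD regions numbered 47.5 per 100 common regions, against 39.4 on chromosome 11 and 23.7 to 78.6 over the autosomes. A domain of 5696 bp at 11734803 to 11740498 held 6 of the KD regions, among them the longest (1498 bp at 11735682 to 11737179, score 5.89). It also held the 3 with the highest scores, which were that region, a 765-bp region at 11737284 to 11738048 (6.01) and a 652-bp region at 11739847 to 11740498 (6.24). That domain crosses the right limit of the window, and without it 13 KD regions remained. On GRCm38.p6 the next protein-coding gene in order after Ikzf1 is Fignl1, and to which gene the domain belongs was not determined. One-sided regions made up 14.6% of the marked length.

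Bach2 had many small marks and no domain of 10 kb where gaps of at most 1 kb were joined. Its window (chromosome 4, 32.20 to 32.62 Mb) held 27 common, 3 KD and 5 WT regions in 28 domains, and 10.5% of it was marked. The broadest common region, 5411 bp at 32247422 to 32252832, ranked 1756 of 43250 common regions. It was also the longest domain and ranked 4136 of 28503 domains, the lowest such rank of the 7 windows. With gaps of up to 5 kb the longest domain at Bach2 measured 16342 bp. WT regions outnumbered KD regions, as they did at Irf4 with its 1 WT region, at a KD share of 37.5% (3 of 8, interval 13.7 to 69.4%), on a chromosome where it was 71.7%. Among the windows with KD regions, Bach2 was the only one in which each lay over 5 kb from a common region.

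The highest scores of all 59 one-sided regions belonged to KD regions at Bach2. The region at 32216718 to 32217173 (456 bp) scored 11.3, at 11106 bp from common sequence. The one at 32587729 to 32588279 (551 bp) scored 9.16 at a distance of 22092 bp, and the third, at 32219631 to 32219845 (215 bp), scored 5.47. They rank 649, 1053 and 4058 among all 14823 KD regions. Of the WT regions, 2 lay inside the broadest common region, at 32248757 to 32248968 (score 3.61) and 32252581 to 32252806 (3.51). The other WT regions stood apart from common sequence, at 32263441 to 32263763 (5.28), 32481485 to 32481711 (5.23) and 32570573 to 32570793 (3.61). The 5 WT regions measured 212 to 323 bp.

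Bcl6, the repressor that defines germinal centre B cells, had no one-sided region. Its window (chromosome 16, 23.75 to 23.84 Mb) held 5 common regions over 10.7 kb. The broadest, 6554 bp at 23803001 to 23809554, took 61.1% of that length, scored 0.456 and ranked 884. Joined with its neighbours it gave a domain of 9867 bp at 23799688 to 23809554, ranked 1083, of which common regions filled 96.4%. The domain lay 49.7 to 59.6 kb from the left limit of the 90-kb window, and the gene is read from the minus strand. On chromosome 16, KD regions were 24.0% and WT regions 5.83% of all regions. With 5 regions in all in the window, the absence of one-sided regions carries little information.

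Irf4, which drives plasma cell differentiation at high levels, was marked broadly and almost wholly in common. Its window (chromosome 13, 30.90 to 30.98 Mb) held 11 common regions, 1 WT region and no KD region, and 33.2% of it was marked. On chromosome 13, KD regions were 20.4% and WT regions 8.74% of all regions. With 12 regions in the window, the absence of KD regions carries little information. The broadest common region, 11985 bp at 30935267 to 30947251, ranked 110, and the domain of 20708 bp at 30930198 to 30950905 ranked 134. The WT region, 451 bp at 30934919 to 30935369 with a score of 3.47, filled the junction between that region and the common region of 4948 bp before it. It overlapped common sequence over 73.2% of its length and made up 1.70% of the marked length. The median score of the common regions was 0.303, the lowest of the 7 windows, against 0.521 over all common regions.

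Prdm1, the plasma cell factor that represses Pax5 and Bcl6, had one-sided regions of both kinds within 1 domain, as Ikzf1 also did. Domains with common, KD and WT regions numbered 2 of 91 in the windows and 552 of 28503 over the assembled chromosomes. The Prdm1 window (chromosome 10, 44.29 to 44.43 Mb) held 14 common, 6 KD and 2 WT regions over 31.8 kb. KD regions were 27.3% of its regions, against 22.1% on chromosome 10, and WT regions 9.09% against 9.21%. The KD share of its one-sided regions was 75% (interval 40.9 to 92.9%), against 70.6% on that chromosome. The broadest common region, 9149 bp at 44316844 to 44325992, ranked 306, and the domain of 20595 bp at 44315629 to 44336223 ranked 138. From left to right this domain held 3 KD regions, at 44316448 to 44316843 (score 4.99), 44317259 to 44317615 (3.50) and 44325741 to 44326096 (3.61). They were followed by WT regions at 44329640 to 44330392 (753 bp, 4.65) and 44331544 to 44332606 (1063 bp, 4.87), the longest of the 13 WT regions. Prdm1 is read from the minus strand, so the order from KD to WT regions runs against the direction of transcription.

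Elsewhere in the Prdm1 window, a domain of 1247 bp at 44303029 to 44304275 had KD regions of 678 bp (score 4.86) and 433 bp (3.58) around a common region of 530 bp. A further KD region, 288 bp at 44375137 to 44375424, scored 3.62. No one-sided region of the window reached a score of 5. One-sided regions took 13.6% of the marked length, of which KD regions 7.89% and WT regions 5.71%.

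**Figure D2:**
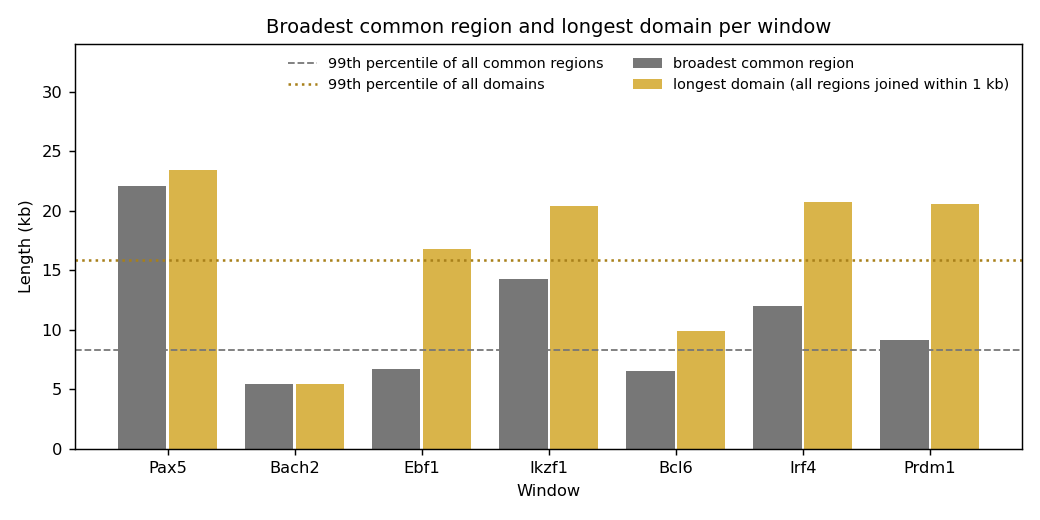
Bars give, for each window, the length in kb of the broadest common region (grey) and of the longest domain joined from all lists within 1 kb (yellow), and lines give the 99th percentile of all common regions and of all domains. The longest domain exceeds the line for domains in the Pax5, Ebf1, Ikzf1, Irf4 and Prdm1 windows, and not in the Bach2 window (5.41 kb) or the Bcl6 window (9.87 kb).

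The factors differed in the breadth of their mark. Longest domains measured 16.8 to 23.4 kb at Pax5, Ebf1, Ikzf1, Irf4 and Prdm1, 9.87 kb at Bcl6 and 5.41 kb at Bach2, where 3.67% of all domains measured at least 10 kb. The broadest common region was in the highest 1% of lengths at Pax5, Ikzf1, Irf4 and Prdm1. Each is the maximum of a window chosen around a B-cell gene, so these ranks describe the loci and test nothing. Upstream CG counts at the listed starts were 19 at Pax5, 44 and 1 at Ikzf1, 11 at Irf4 and 15 at Prdm1. They were 9 and 14 at Ebf1, 21 and 13 at Bcl6 and 7 at Bach2. No region was assigned to a start, so a relation between CG number and breadth was not tested.

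**Figure D3:**
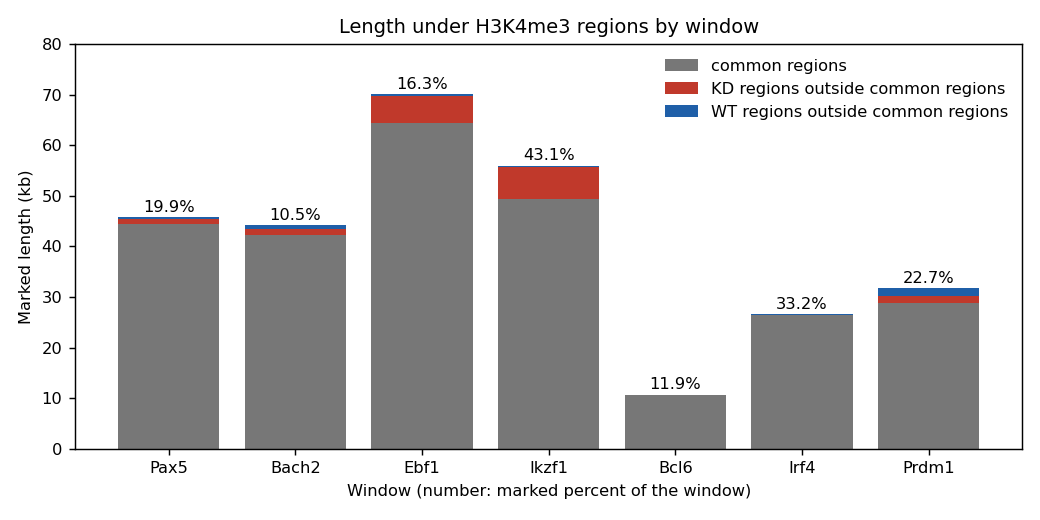
Stacked bars give the marked length of each window in kb, split into common regions and the KD and WT sequence outside common regions, with the marked percent of the window above each bar. The Ebf1 bar is the tallest at 70.1 kb, the Ikzf1 window has the highest marked percent (43.1%), and the Bcl6 bar (10.7 kb) has no one-sided part.

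Most WT regions sat in the longest domain of their window, and most KD regions lay outside it. Of the 13 WT regions, 9 lay in the longest domain of their window, and of the 46 KD regions 4 did, 1 at Ikzf1 and 3 at Prdm1. The whole lists have no windows, so these counts have no direct background. Domains of at least 10 kb held 61.5% of the windows' WT regions (interval 35.5 to 82.3%). They held 8.70% of the windows' KD regions (3.43 to 20.3%). Over the assembled chromosomes they held 7.21% of WT and 17.5% of KD regions. The windows were richer in domains of this length, which were 6.59% of their 91 domains, against 3.67% of all domains. The 2 sets of shares are therefore not like for like. All 10 WT regions in domains with common sequence had common sequence on both sides (0 of 10 at an outer edge, interval 0 to 27.8%), where 26.4% of such WT regions lay at an edge over the assembled chromosomes. Of the 39 KD regions in such domains 24 lay at an edge, 61.5% (45.9 to 75.1%), against 46.6% over the assembled chromosomes. KD regions in contact with common sequence were 54.3%, against 54.6% over the assembled chromosomes, and WT regions 76.9% against 67.0%.

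In domains of at least 10 kb the KD share of the windows was below that of the whole lists, a difference that was not tested. It was 33.3% (4 of 12, interval 13.8 to 60.9%), whereas over the assembled chromosomes it was 87.1% (85.9 to 88.3%), and 85.7% without chromosome 15. In shorter domains it was 89.4% (42 of 47, interval 77.4 to 95.4%), against 71.2%. The limit of 10 kb was chosen after the values were seen, the 12 regions come from 6 domains, and 5 of them are at Prdm1, without which it was 14.3% (of 7). With gaps of up to 5 kb, 15 KD regions and 10 WT regions lay in the longest domains. The KD share in domains of at least 10 kb was then 71.8% (28 of 39, interval 56.2 to 83.5%), against 86.3% over the assembled chromosomes at the same gap, so the difference was smaller and kept its direction.

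**Figure D4:**
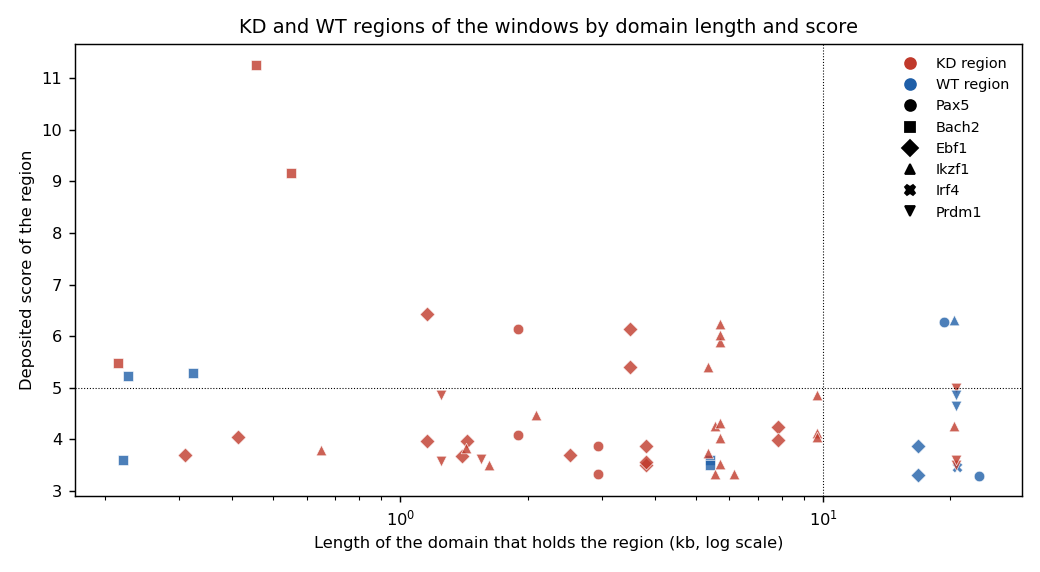
Each point is a one-sided region, with the length of its domain on a log axis in kb and its deposited score on the vertical axis, coloured by list and shaped by window. Points right of the 10-kb line are 8 WT and 4 KD regions, and the highest points are the isolated KD regions of the Bach2 window (11.3 and 9.16).

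One-sided regions of these loci had lower median scores than the whole lists. The median was 4.04 for KD regions (range 3.32 to 11.3), against 4.49 for all KD regions, and 3.87 for WT regions (3.30 to 6.30), against 5.29. Scores under 4 were found for 22 KD regions (47.8%, against 31.1% of all KD regions) and 7 WT regions (53.8%, against 22.5%). A score of at least 5 was reached by 11 KD regions, 3 of them at Bach2, and 4 WT regions. Among the WT regions in longest domains only the one at Ikzf1 did. Median lengths were 357 bp for KD and 323 bp for WT regions, against 341 and 429 bp in the whole lists.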

How the data were processed

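The series has 24 libraries in 4 groups, of which 6 per condition are H3K4me3 immunoprecipitates and 6 are inputs. The tools named in the submitters' processing notes are MACS2 2.2.6, Bowtie2 2.2.9 and SAMtools 1.6, with the build GRCm39. No settings, filters or pooling are stated there (not given in the sources used here). Per the file headers, the authors' 3 lists hold regions unique to either condition or common to both, each with 1 deposited score. There are 0 columns with values per library, so depth is unknown and no test was run.

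Windows were taken from fixed GRCm39 limits, and any overlap made a region a member. The windows, genes and summaries were chosen with earlier results of these data known. Lengths are unions clipped to the windows, and positions are 1-based. Ranks, shares and domains use the 63397 regions on assembled chromosomes, leaving out 28 on unplaced contigs. An edge region lacks common sequence of its domain on 1 side, and an inner region has it on both. The regions named are the broadest common region, the longest domain and the one-sided regions of each window, and for a list with more than 5 in a window the longest and the 3 with the highest score. Other regions named were chosen after their values were seen. The further B-cell genes planned were not analysed here, for want of an annotation of this build among the tables used, and the lists hold no expression with which to check cell type. Python 3.11.15, pandas 2.3.3, numpy 2.4.6, scipy 1.17.1 and matplotlib 3.10.9 were used. The joining code was tested on simulated data and placed 100% of 500 one-sided regions correctly. Alternatives were score and length minimums, other gaps, other window limits and leaving out each window.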

Additional observations from a re-analysis of the deposited data

How the results depend on the processing

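Among 48 values under other settings, 34 lay inside the Wilson interval of the reported share or, for lengths and counts, within 1.5 times of the reported value. Some could not move, such as the KD share without Bcl6, a window with no one-sided region. The settings reuse the same regions, so the tally is no measure of reproducibility. The KD share of the 59 one-sided regions lay between 69.2% (without Ikzf1) and 84.3% (without Bach2) when each window was left out, and it was 87.5% for scores no lower than the list's own median. The one-sided part of the marked length fell to 3.21% with scores of at least 5 and to 4.24% with lengths of at least 500 bp. The median over windows of the broadest common region was 9149 bp, and 17054 bp when touching regions of any list were joined. The KD edge share was 41.9% with domains joined within 5 kb, against 39.1% over the assembled chromosomes at that gap. Longest domains at this gap grew to 72545 bp at Ikzf1, 25528 bp at Ebf1 and 16342 bp at Bach2. With scores of at least 5, 1 WT and 0 KD regions were left in longest domains. Settings for the longest domains, for domains of at least 10 kb and for the end of the Ikzf1 window were added after seeing the data. The cause of these shifts was not tested. No paired analysis was possible because no list has a value for any replicate, and no replicate could be left out. Depth is unknown, so what it limits cannot be stated.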

Other observations

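In 4 of the 7 windows the common region with the highest score was joined to a KD region. The top-scoring common region touched a KD region in the Ebf1 window (score 2.57, 330 bp at 44819037 to 44819366), the Ikzf1 window (2.47, 468 bp at 11736948 to 11737415), the Prdm1 window (2.13, 530 bp at 44303528 to 44304057) and the Pax5 window (1.44, 671 bp at 44564971 to 44565641). In the Bach2 and Irf4 windows, where the top scores were 0.785 and 0.734, it touched a WT region. In the Bcl6 window (0.956) it touched none. Of 28 common regions scoring at least 1, a limit chosen after the values were seen, 15 lay at Ikzf1, 9 at Ebf1, 3 at Prdm1 and 1 at Pax5, and 13 of them (46.4%, 95% Wilson interval 29.5 to 64.2%) touched a KD region. Over the assembled chromosomes 51.8% of such common regions did, so the windows lie near the background. Scores lie below 3 for common and above 3 for one-sided regions, so score and contact with a KD region are not independent.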
